A study of Mus musculus with 24 samples.

Results

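The 107 genes described here encode the protein subunits of the mitochondrial respiratory chain and of ATP synthase, together with 9 factors that help to assemble them. They were taken from the deposited gene table of 54532 genes, of which 22046 are protein-coding, as the protein-coding rows whose symbols begin with Nduf, Uqcr, Cox4 to Cox8, Atp5 or mt-, or are Sdha, Sdhb, Sdhc or Sdhd. Of these, 13 lie in the mitochondrial genome and 94 in the nucleus. The nuclear genes comprise 85 subunits (38 of complex I, 4 of complex II, 8 of complex III, 18 of complex IV and 17 of complex V) and the assembly factors Ndufaf1 to Ndufaf8 and Atp5s. The mitochondrial genes encode 7 subunits of complex I, 1 of complex III, 3 of complex IV and 2 of complex V. The rule reads only the biotype and the symbol of a gene. Complexes were assigned by symbol too, so Ndufa4, known as a subunit of complex IV, is counted in complex I.

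Oxidative phosphorylation passes electrons from NADH and succinate through complexes I to IV of the inner mitochondrial membrane to oxygen, pumps protons on the way, and lets them return through ATP synthase (complex V) to make ATP. Complex II is the only respiratory complex built entirely from nuclear genes, since the other complexes join nuclear subunits to subunits made inside the organelle from polycistronic transcripts of mitochondrial DNA. In macrophages and dendritic cells, inflammatory activation is known for a shift of energy metabolism away from this pathway and towards glycolysis, and for a remodelling of complex I and complex IV.

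The study cultured bone marrow from mice with both copies of Tmem173, the gene of the innate DNA-sensing adaptor STING, flanked by loxP sites, and sequenced polyA RNA from 24 libraries in 8 groups of 3. WT cells carried the floxed alleles without Cre, and CRE cells carried them with a tamoxifen-inducible Cre driven by Lyz2, a promoter of macrophages and neutrophils. The study's methods describe tamoxifen injections for mice of both genotypes, but their section on these cultures does not mention it. Bone marrow-derived macrophages (BMDM) were grown in L929-conditioned medium and bone marrow-derived dendritic cells (BMDC) with GM-CSF and IL-4, and each culture type was left unstimulated (control) or exposed to DMXAA, an agonist of mouse STING. The series text gives 40 µM DMXAA while the study's methods state doses by mass per volume, so the concentration is uncertain, and no exposure time is given for these libraries in the sources used here. Ages are not given for these cultures, and nothing states whether libraries came from separate mice. A p-value therefore measures the spread between libraries, which may be technical.

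Libraries held 15657347 to 18912887 counts assigned to genes. Tmem173 was lower in CRE than in WT BMDM under DMXAA (9.12 and 10.1 FPKM against 31.8 and 22.8 FPKM), with a log2 fold change of -1.45 (SE 0.24, edgeR adjusted p = 0.00921), but its edgeR adjusted p was 0.772 between the control BMDM and 1 in both conditions of the BMDC. The 4 BMDM libraries numbered 3 stood apart from their label. Their summed level of 10 macrophage markers was 42.5 to 72.5 CPM (counts scaled to library size) against 14563 to 26305 CPM in the other 8 BMDM libraries, and that of 10 fibroblast markers was 16102 to 25989 CPM against 56.4 to 909 CPM. Lyz2, the gene whose promoter drives the Cre, was at 0.895 to 9.58 CPM in the libraries numbered 3 and at 3126 to 15861 CPM in the others. BMDM therefore means the libraries numbered 1 and 2 in all tests, and those numbered 3 are described apart. Within BMDM numbers 1 and 2, the fibroblast markers were highest in the WT number 2 libraries (909 CPM in control, 755 CPM under DMXAA) and at 56.4 to 111 CPM in the other 6. BMDC carried the identity genes of their label, with 10 dendritic cell markers summing to 6229 to 10683 CPM against 185 to 663 CPM in BMDM, and they also held 6446 to 12642 CPM of the macrophage markers.

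Promoter sequences of 4 genes on which the results turn are shown first. They are from RefSeq on GRCm38.p6, written 5′ to 3′ on the strand of the gene, and positions are counted back from the RefSeq start of the gene. The stretches of Ndufa6 and Ndufa4 stop short of that start, at the base before the gene model of the deposited table begins. Capitals mark motif letters found by search. Ndufs3 and Ndufaf4 are shown as the nuclear subunit called higher and the assembly factor called lower by the most under DMXAA in WT cells of both types, Ndufa6 and Ndufa4 as the members of the highest and the lowest ratio of BMDC to BMDM among complex I genes called in control cells. For Ndufs3, only a site of 27 bases at chr2:90904732-90904758 (minus strand) is shown, which lies inside the deposited gene model and before the RefSeq start and holds the ETS core CCGGAAG. For Ndufaf4, the stretch chr4:24897833-24898082 (plus strand) holds 2 overlapping matches of the NRF1 core GCATGCGC, on opposite strands, beginning 113 and 111 bases before the RefSeq start. For Ndufa6, chr15:82354323-82354541 (minus strand) holds 1 NRF1 core, 83 bases before the RefSeq start. For Ndufa4, chr6:11907498-11907700 (minus strand) holds none of the letters searched.
Ndufs3: ccgcgtccgcCCGGAAGaagagtcact
Ndufaf4: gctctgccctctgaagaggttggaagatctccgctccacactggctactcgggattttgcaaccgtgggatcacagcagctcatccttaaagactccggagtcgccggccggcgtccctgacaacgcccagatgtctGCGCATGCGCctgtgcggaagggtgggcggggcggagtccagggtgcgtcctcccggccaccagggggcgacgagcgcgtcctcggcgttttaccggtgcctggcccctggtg
Ndufa6: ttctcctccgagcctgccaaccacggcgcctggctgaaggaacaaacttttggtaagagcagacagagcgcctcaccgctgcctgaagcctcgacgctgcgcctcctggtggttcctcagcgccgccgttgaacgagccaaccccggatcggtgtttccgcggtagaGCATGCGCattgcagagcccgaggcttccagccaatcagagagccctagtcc
Ndufa4: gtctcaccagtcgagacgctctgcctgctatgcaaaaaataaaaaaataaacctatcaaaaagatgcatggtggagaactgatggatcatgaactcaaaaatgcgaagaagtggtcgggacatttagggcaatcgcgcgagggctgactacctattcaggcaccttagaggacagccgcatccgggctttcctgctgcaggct

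A promoter of 250 bases was found for 76 of the 94 nuclear members and for 16831 genes in all, and both strands were searched. NRF1 and GABPA, an ETS factor, are transcription factors known for driving nuclear respiratory genes. The NRF1 core stood in 9 of the 76 member promoters (11.8%) and in 521 of all promoters (3.10%). The 9 were those of Atp5g2, Atp5k, Atp5l, Cox6a1, Ndufa11, Ndufa6, Ndufa8, Ndufaf4 and Sdhb. The ETS core CCGGAAG stood in 13 member promoters (17.1%) and in 9.36% of all. TATAAA stood in 6 (7.89%) against 12.1% of all, and the YY1 core AAGATGGC in 0 against 1.497% of all. These are letter matches, and binding was not measured.

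Of the 107 members, 102 reached 1 FPKM in at least 1 library. FPKM, the deposited unit, scales fragments to gene length and library size, so ranks between genes depend on the lengths used. Cox7b2, Cox8b, Cox8c and a second identifier of Atp5o had no counts in any library. Among nuclear subunits tested, the mean over the 20 BMDM and BMDC libraries ranged from 1.45 FPKM for Ndufb2 to 179 FPKM for Ndufa2 in complex I. It ranged from 36.5 FPKM (Sdhc) to 121 FPKM (Sdhd) in complex II and from 38.1 FPKM (Uqcrc2) to 168 FPKM (Uqcr10) in complex III. In complex IV the range was 0.360 FPKM (Cox4i2) to 462 FPKM (Cox8a). In complex V it was 14.6 FPKM (Atp5g1, a form of the ATP synthase c-ring subunit) to 238 FPKM (Atp5a1, the alpha subunit of its catalytic head). The rank of Atp5g1 differs in counts: it held 1051 in WT control BMDM number 1, where Atp5k held 500.

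Summed per library, the nuclear members stood at 4014 to 5328 FPKM in BMDM and at 5176 to 9011 FPKM in BMDC, and the highest BMDM library lay above the lowest BMDC library. The mitochondrial members summed to 9006 to 10123 FPKM in BMDM and 10107 to 19597 FPKM in BMDC. The spread in BMDC came from libraries carrying different numbers: WT number 1 reached 17908 FPKM in control and 19597 FPKM under DMXAA, and CRE number 2 reached 17126 and 16469.7 FPKM, while the other 8 BMDC libraries lay between 10107 and 10869.6 FPKM. The CRE number 2 libraries also held the most counts of 8 neutrophil markers, at 368 CPM in control and 168 CPM under DMXAA against 7.52 to 23.9 CPM in the other 10 BMDC libraries, and the fewest of the macrophage markers (6688 and 6446 CPM), and the part of this in the sums was not tested. These 2 pairs of libraries also deviated together from their group means across all genes, as did other pairs of unlike number from the 2 genotypes. As shares of all gene counts, the mitochondrial members made up 0.824% to 1.31% in BMDM and 1.13% to 2.28% in BMDC, and the nuclear members 0.528% to 0.891% and 0.747% to 1.31%. Several mitochondrial members share most of their sequence with nuclear pseudogenes, as described below. How such reads were counted is not given, so the mitochondrial sums and shares may not be full amounts.

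**Figure D1:**
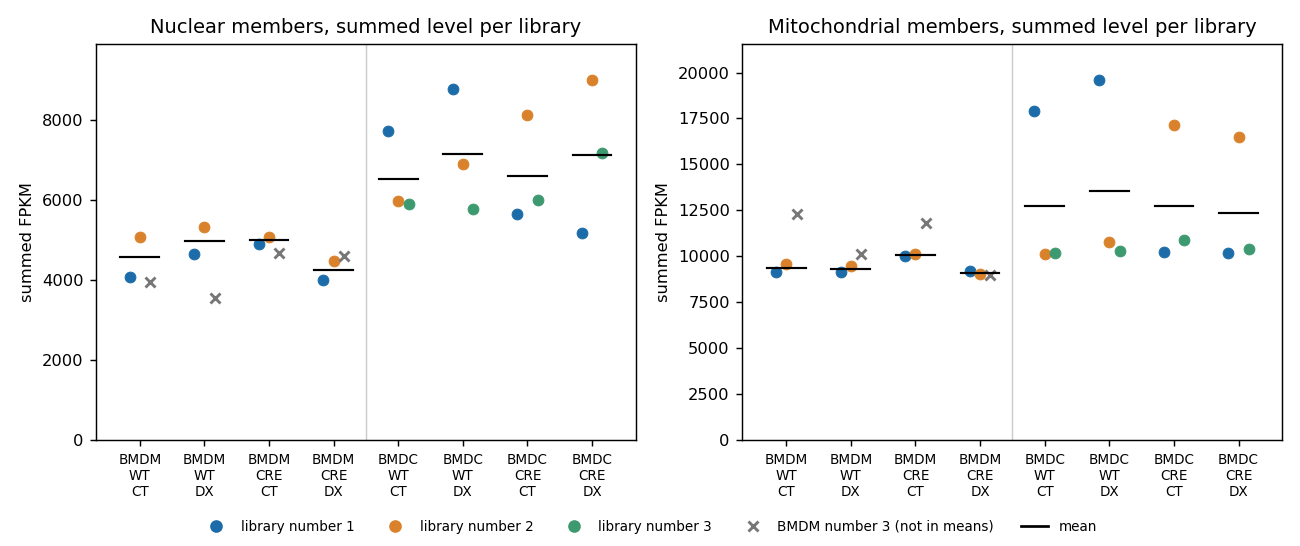
Summed FPKM of the nuclear members (left) and mitochondrial members (right) in each library, by group (CT control, DX DMXAA); circles are libraries, bars are group means, and crosses are the BMDM libraries numbered 3, which are left out of the means. BMDC WT number 1 and CRE number 2 stand at 16469.7 to 19597 FPKM for the mitochondrial members, above the other 8 BMDC libraries.

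The comparisons under DMXAA asked how the agonist moved these genes with and without Cre. In WT BMDM, DMXAA raised 2 nuclear subunit genes of complex I and lowered 2 assembly factors of the same complex, while the other 83 of 87 nuclear members tested were not called. The median log2 fold change of the nuclear members was -0.01, beside -0.08 for all genes, and the 95% interval of 78 of the 87 lay within a 2-fold change either way. Over all 11569 genes tested, 18.4% were called higher and 20.7% lower at an edgeR adjusted p under 0.05. The 4 nuclear calls of 87 and 1 mitochondrial call of 13 are a smaller share than that. The number of members called changed with each library left out, to 11 without control number 1, 9 without control number 2, 3 without DMXAA number 1 and 10 without DMXAA number 2. Groups of 2 libraries against 2 did not overlap for 25 nuclear members (16 higher and 9 lower), where 62.5% of all genes did not overlap (3825 higher and 3408 lower).

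Ndufs3, a core subunit of the peripheral arm of complex I, was at 21.5 and 23.1 FPKM in WT control BMDM and at 37.1 and 38.7 FPKM under DMXAA. In CRE BMDM it was at 26.2 and 26.1 FPKM in control and 23.8 and 26.9 FPKM under DMXAA. Both WT libraries under DMXAA lay above every other BMDM library, whereas the CRE groups overlapped. The WT log2 fold change was 0.65 (SE 0.12, edgeR adjusted p = 0.0065). The comparison of genotypes under DMXAA shares the WT libraries with it. Under DMXAA the CRE libraries were lower than WT by a log2 fold change of -0.53 (SE 0.12, edgeR adjusted p = 0.0272), the only member called among 100 in that comparison, where 9.26% of all genes were called higher and 10% lower. The interaction of genotype and DMXAA for Ndufs3 was -0.72 (SE 0.17) and was not called (edgeR adjusted p = 0.0787). That call between genotypes was lost without CRE number 1 (-0.46, adjusted p = 0.19), WT number 2 (-0.49, adjusted p = 0.0556) or CRE number 2 (-0.63, adjusted p = 0.108), all libraries under DMXAA. Of the 75-base stretches in the Ndufs3 transcripts, 12.2% also occur in transcripts of Gm12251 or Kbtbd4, and the counting rule for such reads is not given in the sources used here.

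Ndufs4, an accessory subunit of the same arm, rose in WT BMDM from 9.35 and 10.9 FPKM to 15.3 and 16.0 FPKM, with no overlap. Its log2 fold change was 0.52 (SE 0.16, edgeR adjusted p = 0.0372). This call was lost without WT control number 1 (0.41, adjusted p = 0.105), WT DMXAA number 1 (0.56, adjusted p = 0.071) or WT DMXAA number 2 (0.47, adjusted p = 0.0982). In CRE BMDM, Ndufs4 was at 10.3 and 12.1 FPKM in control and at 11.4 and 13.2 FPKM under DMXAA, and those groups overlapped.

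The assembly factor Ndufaf4, which helps to build the peripheral arm of complex I, showed the largest fall among nuclear members called. In WT BMDM it was at 4.33 and 4.64 FPKM in control and at 1.88 and 1.63 FPKM under DMXAA. In CRE BMDM it was at 4.64 and 4.61 FPKM in control and at 2.39 and 2.70 FPKM under DMXAA. Every DMXAA library lay below every control library in both genotypes, and the CRE libraries under DMXAA lay above the WT ones. Ndufaf4 changed by -1.46 on the log2 scale in WT (SE 0.17, edgeR adjusted p = 0.00101) and -0.88 in CRE (SE 0.17, edgeR adjusted p = 0.0221). The interaction was 0.58 (SE 0.24) and was not called (edgeR adjusted p = 0.235). The CRE call was lost without any single library of the 4: the adjusted p was 0.185 and 0.182 without control number 1 or 2, and 0.198 and 0.129 without DMXAA number 1 or 2, while the log2 fold change stayed at -0.81 to -0.98. Ndufaf4 and Ndufaf7 lay under the mean of 5 FPKM set for naming genes in BMDM and were chosen there after their values were seen.

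Ndufaf7, a methyltransferase that modifies a complex I subunit during assembly, was at 3.47 and 4.71 FPKM in WT control BMDM and at 1.89 and 2.94 FPKM under DMXAA, without overlap (log2 fold change -0.86, SE 0.27, edgeR adjusted p = 0.0447). The call was lost without WT DMXAA number 1 (-0.57, adjusted p = 0.143) or WT control number 2 (-0.59, adjusted p = 0.159). In CRE BMDM it was at 4.17 and 4.40 FPKM in control against 2.20 and 2.03 FPKM under DMXAA, with an edgeR adjusted p of 0.0621.

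In CRE BMDM most log2 fold changes of nuclear members under DMXAA were small and negative, and 1 of the 87 was called. The fold change was positive for 10, and the median was -0.25 beside -0.01 for all genes. With 1 library left out, the nuclear median was -0.333 to -0.165 in CRE BMDM and -0.173 to 0.201 in WT BMDM. For the interaction of genotype and DMXAA it was -0.422 to -0.116. By complex, the medians of the subunits in CRE BMDM were -0.25 (I), -0.14 (II), -0.24 (III), -0.25 (IV) and -0.27 (V). Ndufaf4 was the only nuclear member called, where 7.28% of all genes were called higher and 2.72% lower. Both DMXAA libraries lay below both control libraries for 65 of the 87 and above them for 6, where 76.7% of all genes did not overlap (4269 of 11569 lower and 4610 higher). The 95% interval lay within a 2-fold change for 77 of the 87. The genotypes share no libraries in these comparisons, and the median of the interaction over the nuclear members was -0.23, with 0 nuclear or mitochondrial members called where 3.66% of all genes were. At an unadjusted p under 0.05, 4 nuclear members passed, and DESeq2 and limma each called 1 member. Between the control groups of the 2 genotypes 0 members were called by edgeR, DESeq2 or limma and 0 passed an unadjusted p under 0.05, where edgeR called 0.0432% of all genes. There the CRE libraries did not overlap the WT ones for 23 nuclear members, 22 of them higher in CRE, where 39.6% of all genes did not overlap (2518 higher and 2058 lower). Under DMXAA, 41 nuclear members were lower and 3 higher in both CRE libraries than in both WT libraries, where 62.8% of all genes did not overlap (3829 lower and 3432 higher).

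**Figure D2:**
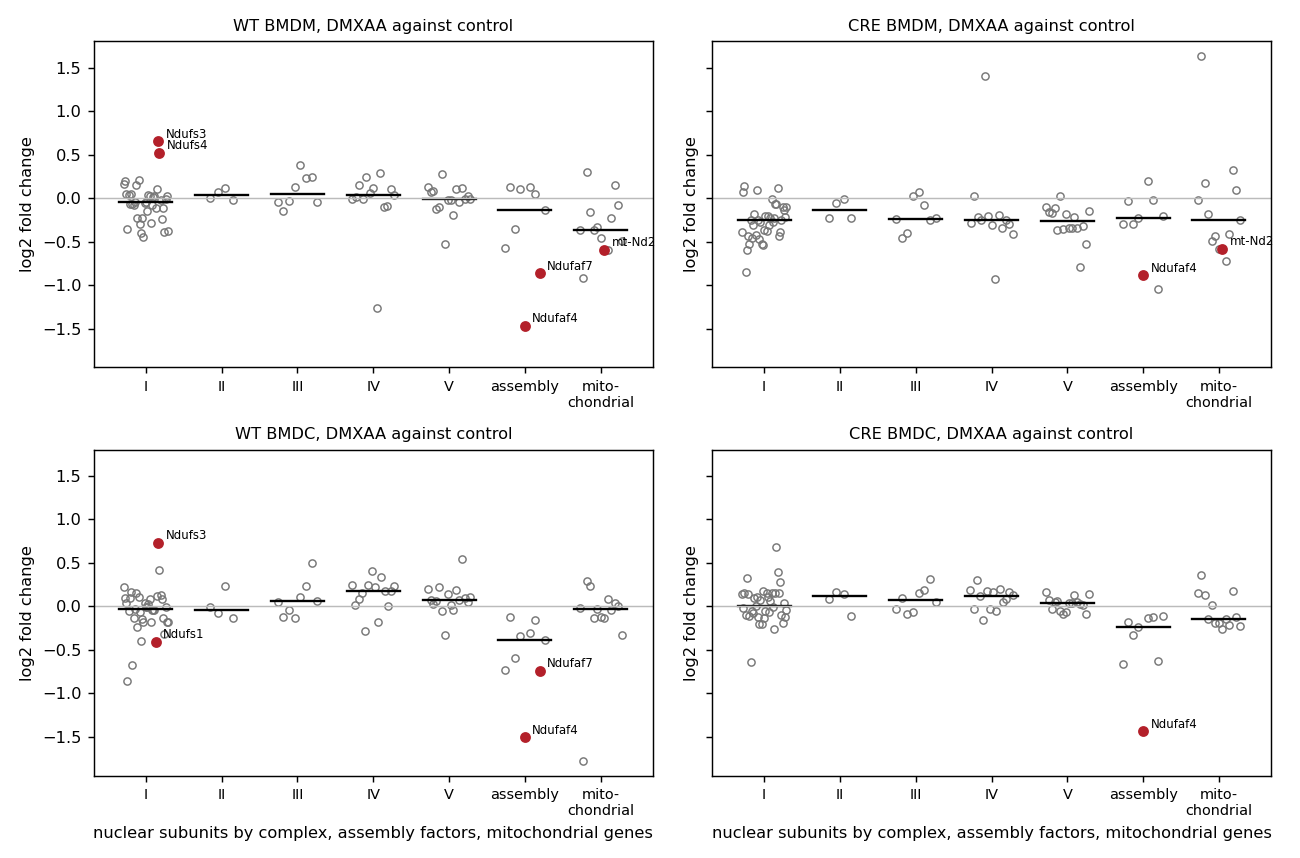
Log2 fold change of each tested member under DMXAA in the 4 combinations of cell type and genotype, by complex; filled points passed edgeR adjusted p under 0.05, open points did not, and bars are medians. Ndufaf4 stands at -1.46, -0.88, -1.51 and -1.44, and the nuclear members of CRE BMDM sit mostly below 0 with a median of -0.25.

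In BMDC, DMXAA moved few of these genes and the same assembly factor stood lowest. Ndufaf4 was at 5.62, 4.68 and 4.91 FPKM in WT control and at 1.88, 2.20 and 1.36 FPKM under DMXAA. In CRE it was at 5.15, 6.04 and 4.11 FPKM in control and at 1.40, 2.60 and 1.76 FPKM under DMXAA. No DMXAA library reached the level of any control library. Its log2 fold change was -1.51 in WT (SE 0.26, edgeR adjusted p = 0.00107) and -1.44 in CRE (SE 0.26, edgeR adjusted p = 0.00191), and both calls held in all 16 alternatives. The difference between the genotypes was 0.07 (SE 0.36, 95% interval -0.71 to 0.85), and that between WT cell types was -0.02 (SE 0.36, 95% interval -0.78 to 0.74).

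Ndufs3 was higher in all 6 same-numbered pairs of BMDC. It was at 27.8, 20.5 and 22.3 FPKM in WT control and at 52.6, 34.1 and 32.9 FPKM under DMXAA, without overlap. In CRE it went from 21.3, 29.4 and 23.1 FPKM to 28.9, 50.7 and 40.4 FPKM, where 1 DMXAA library fell below the highest control library. For Ndufs3 the log2 fold change was 0.73 in WT (SE 0.23, edgeR adjusted p = 0.0336) and 0.68 in CRE (SE 0.23, edgeR adjusted p = 0.055). The WT call was lost without DMXAA number 1 (0.51, adjusted p = 0.138), control number 2 (0.65, adjusted p = 0.119) or control number 3 (0.70, adjusted p = 0.0983). With same-numbered libraries blocked within each genotype, Ndufs3 passed in both genotypes (WT 0.72, edgeR adjusted p = 0.000893; CRE 0.66, edgeR adjusted p = 0.00192).

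Ndufaf7, which in BMDC also lay under the level set for naming genes and was chosen after its values were seen, was in WT at 4.92, 4.56 and 4.59 FPKM in control and at 2.91, 3.50 and 2.14 FPKM under DMXAA (log2 fold change -0.74, SE 0.23, edgeR adjusted p = 0.0284). Ndufs1, the largest core subunit of complex I, was at 11.4, 9.20 and 9.05 FPKM in control and at 7.05, 8.31 and 7.26 FPKM under DMXAA (log2 fold change -0.41, SE 0.14, edgeR adjusted p = 0.0484). Neither gene overlapped between the groups, but each call was lost in 5 of the 6 cases of 1 WT library left out, the exception being DMXAA number 2, with adjusted p up to 0.108 and 0.186. All 9 assembly factors had a negative log2 fold change in both genotypes, with medians of -0.38 in WT and -0.24 in CRE, beside 0.01 and -0.01 for all genes. Of these 9, 2 were called in WT and 1 in CRE.

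Across the nuclear members of BMDC as a whole, 4 of 88 were called in WT and 1 in CRE. In WT, 1 was called without DMXAA number 1, control number 2 or control number 3, and 2 without control number 1 or DMXAA number 3. In CRE, 2 were called without DMXAA number 1 or control number 2, and 3 without DMXAA number 2. Of all 12126 genes, 17% were called higher and 15.2% lower in WT, and 14% higher and 11.4% lower in CRE. The medians were 0.02 and 0.04, and the 95% interval lay within a 2-fold change for 75 of the 88 in WT and 81 in CRE. No DMXAA library overlapped the control libraries for 8 nuclear members in WT (1 higher, 7 lower) and 5 in CRE (2 higher, 3 lower), where 49% of all genes (3077 higher, 2865 lower) and 34.6% (2257 higher, 1935 lower) did not overlap. No label states that numbers pair these libraries, but same-numbered ones deviated together across all genes. Over the members alone, the correlations were 0.174, 0.516 and -0.177 in WT and 0.628, 0.695 and 0.659 in CRE. With the block within genotype 13 members were called in WT and 5 in CRE. With that block, 24.6% of all genes were called higher and 24.2% lower in WT, and 21.7% and 21% in CRE. The members then called in WT included Uqcrh, a hinge subunit of complex III, at 0.50 (edgeR adjusted p = 0.0061), Ndufs4 at 0.41 (edgeR adjusted p = 0.0325) and mt-Co1 at 0.30 (edgeR adjusted p = 0.0261), all higher. Those lower included Ndufa4 at -0.68 (edgeR adjusted p = 0.00356), Ndufb10 at -0.40 (edgeR adjusted p = 0.0244) and Atp5s at -0.73 (edgeR adjusted p = 0.0484). In CRE the 5 were Ndufaf4, Ndufaf7, Ndufa4, Ndufs3 and Ndufs4. Uqcrh, Ndufb10 and Atp5s were chosen after their values were seen.

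No member was called between CRE and WT BMDC. By edgeR, 0 members and 0% of all genes were called under DMXAA, 0 and 0% in control, and 0 and 0% for the interaction, and DESeq2 and limma also called 0 members in each. At an unadjusted p under 0.05, 0 members passed in any of these comparisons, while 108, 99 and 60 of all genes did. The 95% interval lay within a 2-fold change for 85 of the 88 nuclear members under DMXAA and 83 in control. The CRE and WT libraries did not overlap for 0 nuclear members under DMXAA and 2 in control, where 2.61% and 3.97% of all genes did not overlap.

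The mitochondrial members summed to 9368 ± 292 FPKM (SD, n = 2) in WT control BMDM and to 9300 ± 205 FPKM (SD, n = 2) under DMXAA. As a share of all gene counts they were lower under DMXAA in all 12 same-numbered pairs, at 1.26% and 0.864% on average in WT BMDM and at 1.301% and 1.04% in CRE BMDM, without overlap in either genotype. The share of the nuclear members was also lower, at 0.821% and 0.592% on average in WT BMDM and at 0.839% and 0.622% in CRE BMDM. It was not lower in the CRE pair of BMDM numbered 3 (1.0035% in control, 1.00567% under DMXAA). The deposited FPKM rest on a library size of the authors that departs from the total count, so both measures are given. Of the 13 genes, mt-Nd2, a membrane-arm subunit of complex I, was called in BMDM. It was at 725 and 726 FPKM in WT control and at 458 and 581 FPKM under DMXAA. In CRE it was at 783 and 789 FPKM in control and at 537 and 529 FPKM under DMXAA. The groups did not overlap in either genotype, and the log2 fold change was -0.59 in WT (SE 0.14, edgeR adjusted p = 0.0169) and -0.58 in CRE (SE 0.14, edgeR adjusted p = 0.0495). The CRE call was lost without any single library of the 4, with adjusted p of 0.264 and 0.276 without control number 1 or 2 and of 0.277 and 0.257 without DMXAA number 1 or 2, while the log2 fold change stayed at -0.58 to -0.60. In BMDC, mt-Nd2 was at 1125, 599 and 646 FPKM in WT control and at 1157, 543 and 504 FPKM under DMXAA, which overlap.

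mt-Co1, the catalytic core subunit of complex IV, was at 3310.4 and 2936 FPKM in WT control BMDM and at 4502 and 3794 FPKM under DMXAA. Both DMXAA libraries were higher, but the log2 fold change of 0.30 (SE 0.13) was not called (edgeR adjusted p = 0.105). In CRE BMDM it was at 3558 and 3588 FPKM in control and at 4189 and 4012 FPKM under DMXAA, with an edgeR adjusted p of 0.414. As a share of the counts of the 13 mitochondrial genes, mt-Co1 was higher under DMXAA in all 12 same-numbered pairs. The share was 40.4% to 45.2% in control BMDM and 49.98% to 58.0% under DMXAA, without overlap. In BMDC it was 43.1% to 48.8% and 45.0% to 57.0%, which overlap. Since 39.8% of the 75-base stretches of mt-Co1 also occur in nuclear pseudogenes, and more in several other genes of the sum, these shares depend on how such reads were counted.

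The shares of mt-Nd1, mt-Nd2 and mt-Cytb were lower under DMXAA in all 12 pairs. mt-Nd1, a subunit near the quinone site of complex I, went from 13.04% to 15.1% in control BMDM to 8.86% to 12.3% under DMXAA. mt-Nd2 went from 6.61% to 6.71% to 3.96% to 5.14%, and mt-Cytb, the cytochrome b of complex III, from 14.4% to 15.7% to 11.5% to 13.1%. In BMDM the control and DMXAA ranges of all these shares were separate. In the BMDC they overlapped, with mt-Nd1 at 10.5% to 14.5% in control and 8.28% to 14.4% under DMXAA. These 4 genes were singled out after their values were seen, shares of 1 sum move against each other, and no test was made. The ratio of mt-Co1 to mt-Nd2 in FPKM was higher under DMXAA in each of the 12 pairs, going from 4.56 to 9.83 and from 4.05 to 6.53 in WT BMDM and from 4.54 to 7.80 and from 4.54 to 7.59 in CRE BMDM.

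**Figure D3:**
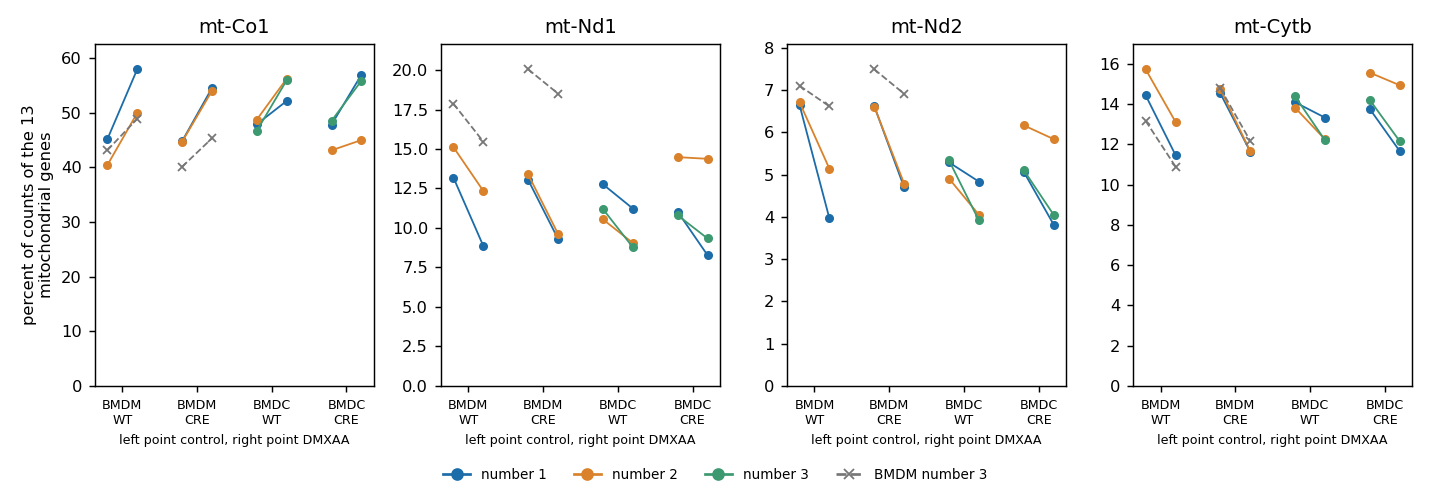
Share of the counts of the 13 mitochondrial genes held by mt-Co1, mt-Nd1, mt-Nd2 and mt-Cytb, in percent, for control (left point) and DMXAA (right point) libraries of the same number joined by lines; crosses are the BMDM libraries numbered 3. mt-Co1 is higher under DMXAA in all 12 pairs, between 49.98% and 58.0% in BMDM numbers 1 and 2, and the other 3 genes are lower in all 12.

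The other mitochondrial genes ranged widely and are partly uncertain. In BMDM, mt-Nd6 stood at 693 to 1355 FPKM, mt-Nd4 at 546 to 727 FPKM and mt-Nd5 at 404 to 572 FPKM, all complex I subunits. mt-Co2 was at 64.7 to 122.8 FPKM, mt-Co3 at 22.0 to 34.1 FPKM and mt-Atp6 at 22.8 to 34.0 FPKM. mt-Nd3 was at 7.48 to 17.0 FPKM, mt-Nd4l at 3.03 to 8.51 FPKM and mt-Atp8 at 0 to 1.47 FPKM. Several have copies elsewhere, among genes of low and of high level: 97.8% to 99.9% of the 75-base stretches of mt-Co2, mt-Co3, mt-Atp6, mt-Nd3 and mt-Nd4l, 61.5% of mt-Nd4 and 39.8% of mt-Co1 also occur in nuclear pseudogenes, whose matching run on chromosome 1 lies between positions 24611535 and 24616197. Those of mt-Nd1, mt-Nd6, mt-Cytb and mt-Atp8 are not shared, and 5.71% of mt-Nd2 is. mt-Atp8 overlaps mt-Atp6, mt-Nd4l overlaps mt-Nd4, and mt-Nd6 lies on the strand opposite to its neighbours, so that without strand its reads cannot be told apart from antisense RNA.

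The comparison of cell types asked how WT BMDC and WT BMDM differed in the same condition. Few members were called, most of them higher in BMDC, and Ndufa4 was far lower. In control cells, 78 of the 89 nuclear members tested and all 13 mitochondrial ones had a positive log2 fold change, with medians of 0.40 and 0.48 beside -0.02 for all genes. Of the nuclear members, 10 were called higher and 1 lower, beside 13.1% (higher) and 15.4% (lower) of all 13368 genes. With DMXAA present, 79 of 89 and 12 of 13 were positive, with medians of 0.43 and 0.65 beside 0.04. There 18 nuclear members were called higher and 2 lower, and 2 mitochondrial members were called higher, where 15.3% of all genes were called higher and 15.3% lower. Cox6b2, counted among the called in both conditions, and Cox4i2, counted among the tested, passed the filter on low values only through BMDC. Fewer cells of a type and less RNA per cell cannot be told apart in such bulk libraries, and culture medium and cell type cannot be told apart here. The BMDC WT number 1 library was among the highest for many members: with BMDC WT number 1 and CRE number 2 left out, the nuclear medians were 0.21 in control and 0.31 under DMXAA.

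By complex, the 15 nuclear subunits of complex IV had medians of 0.58 in control and 0.88 under DMXAA. These 15 include Cox6b2 and Cox4i2, which passed the filter on low values only through BMDC. They leave out Ndufa4, which is counted in complex I. Of the 15, 5 were called higher in control and 8 under DMXAA, Cox6b2 among them. The subunits counted in complex IV summed to 1242 to 1683 FPKM in BMDM and 1943 to 3531 FPKM in BMDC, without overlap. The 16 of complex V were all positive in both conditions, with medians of 0.46 and 0.59, and 1 and 4 were called higher. Complex III had medians of 0.41 and 0.43 and complex I 0.22 and 0.31. Complex II stood at 0.01 and 0.08 with 0 called, and its summed level of 216 to 263 FPKM in BMDM overlapped that of 222 to 337 FPKM in BMDC. In it, Sdhd, a membrane anchor, was at 81.8 to 104 FPKM in BMDM and 101 to 181 FPKM in BMDC, and Sdhb, the iron-sulphur subunit, was at 50.9 to 72.9 and 37.0 to 58.2 FPKM. Sdha, the flavoprotein, was at 41.6 to 50.4 FPKM and 49.1 to 61.4 FPKM, and Sdhc, the other anchor, at 33.8 to 42.8 FPKM and 27.4 to 45.9 FPKM.

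**Figure D4:**
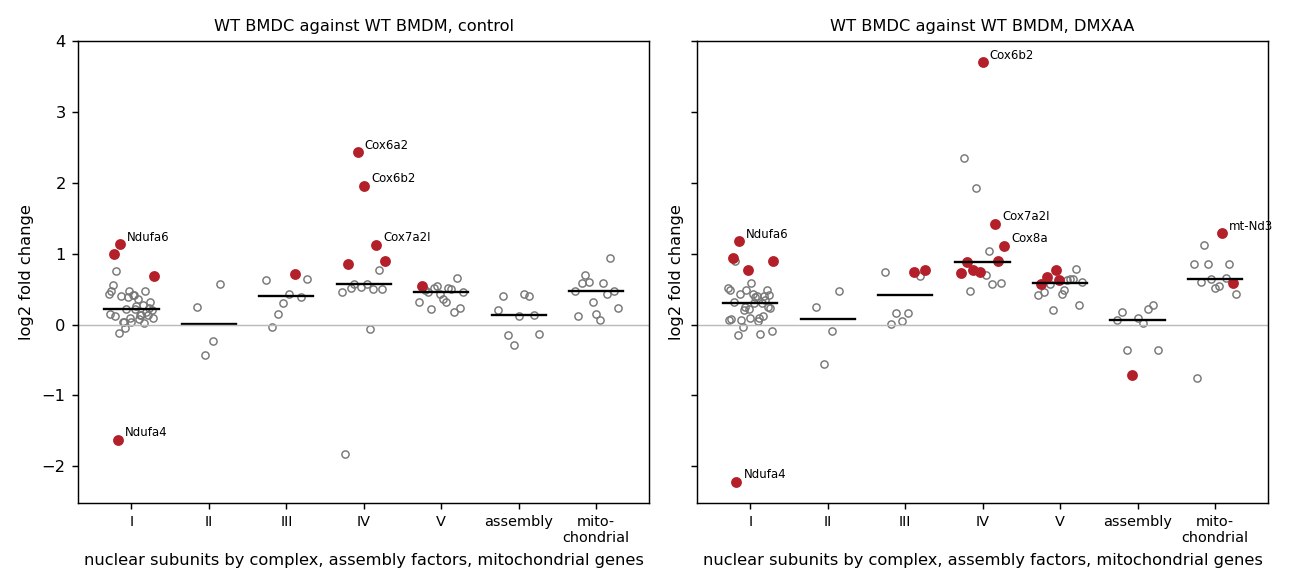
Log2 fold change of WT BMDC against WT BMDM for each tested member, in control (left) and under DMXAA (right), by complex; filled points passed edgeR adjusted p under 0.05 and bars are medians. Complex IV, without Ndufa4, has the highest medians (0.58 and 0.88). Ndufa4, plotted under I, lies at -1.62 and -2.22. Cox6b2 and Cox4i2, both within the complex IV medians, passed the filter only through BMDC.

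Ndufa6, an accessory subunit of complex I, was at 21.2 and 25.0 FPKM in WT control BMDM and at 66.9, 45.1 and 46.8 FPKM in WT control BMDC. Every BMDC library of any group, at 36.1 to 68.3 FPKM, lay above every BMDM library, at 21.2 to 30.6 FPKM. Ndufa6 had a log2 fold change of 1.14 in control (SE 0.23, edgeR adjusted p = 0.00145) and 1.17 under DMXAA (SE 0.23, edgeR adjusted p = 0.00114), and the control call held in all 14 alternatives. Cox7a2l is known for a role in joining complexes III and IV into supercomplexes, which was not measured in these cells. It was at 127 and 149 FPKM in WT control BMDM and at 413, 282 and 247 FPKM in BMDC. Under DMXAA it was at 136 and 143 FPKM against 484, 339 and 258 FPKM, and the groups did not overlap in either condition. Its log2 fold change was 1.13 (SE 0.26, edgeR adjusted p = 0.00423) in control and 1.42 (SE 0.27, edgeR adjusted p = 0.000829) under DMXAA. Without BMDM control number 1 the control value was 1.03 (adjusted p = 0.053). Of its 75-base stretches, 10.4% also occur in Gm6969.

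Several complex IV subunits exist as tissue forms. Cox6a2, the heart and muscle form of subunit 6A, was at 1.296 and 6.41 FPKM in WT control BMDM and at 25.7, 24.6 and 15.1 FPKM in WT control BMDC, without overlap (log2 fold change 2.44, SE 0.73, edgeR adjusted p = 0.0201). Its call was lost without BMDM control number 1 (1.72, adjusted p = 0.163). In CRE BMDC number 2 it was at 5.45 FPKM in control and 4.82 FPKM under DMXAA, inside the range of BMDM. The usual form Cox6a1 stood far above it, at 258 to 339.9 FPKM in BMDM and 365 to 689 FPKM in BMDC.

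Cox6b2, the testis form of subunit 6B, was low everywhere, at 0.112 to 0.727 FPKM in BMDM and 1.93 to 3.91 FPKM in BMDC. It met the filter on low values only through BMDC, where it is higher, so its calls in both conditions rest on that filter and are given as no result. Its usual form Cox6b1 was at 134 to 194 FPKM and 206 to 391 FPKM. Cox4i2, the hypoxia-linked form of subunit 4, was at 0 to 2.52 FPKM in any of these libraries, beside 179.7 to 238 FPKM for Cox4i1 in BMDM and 249 to 409 FPKM in BMDC. Cox7a1, the muscle form of subunit 7A, was at 0.900 to 2.82 FPKM in BMDM beside 70.3 to 129 FPKM for Cox7a2. Ndufa4l2, a hypoxia-induced relative of Ndufa4, stayed at or below 0.374 FPKM and was not tested.

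Cox8a, the nuclear subunit of the highest level, was at 241 and 315 FPKM in WT control BMDM and at 633, 505 and 475 FPKM in WT control BMDC. The groups did not overlap, with a log2 fold change of 0.89 (edgeR adjusted p = 0.0249) in control and 1.11 (edgeR adjusted p = 0.00729) under DMXAA. Without BMDM control number 1 the control call was lost (0.73, adjusted p = 0.199), as it was without BMDC control number 1 (0.77, adjusted p = 0.0783), and the DMXAA call was lost without BMDM DMXAA number 1 (0.93, adjusted p = 0.0902). Ndufa13, a complex I subunit also known as GRIM-19, had a log2 fold change of 0.9997 (edgeR adjusted p = 0.0123) in control, lost without BMDM control number 1 (0.74, adjusted p = 0.163). Under DMXAA its call was lost without BMDM DMXAA number 1 (0.66, adjusted p = 0.196) or BMDC DMXAA number 2 (0.84, adjusted p = 0.0567). It shares 25.6% of its 75-base stretches with Tssk6. Without BMDM control number 1, 3 members in all were called in control cells, and 7 without BMDC control number 1. Without BMDM DMXAA number 1, 5 members were called under DMXAA, and 10 without BMDC DMXAA number 1. No interaction of cell type and DMXAA was called for any member, where 2.61% of all genes were called. At an unadjusted p under 0.05, 0 members passed that interaction, and DESeq2 and limma called 0.

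Under DMXAA, the 2 mitochondrial members called higher in BMDC were mt-Nd3 (1.29, SE 0.35, edgeR adjusted p = 0.0117) and mt-Nd5 (0.59, edgeR adjusted p = 0.0411), both of complex I. mt-Nd3 was at 7.88 and 12.9 FPKM in BMDM, from 31 and 65 counts, and at 25.7, 31.5 and 17.0 FPKM in BMDC, which do not overlap. Of its 75-base stretches, 97.8% also occur in the pseudogene Gm28438. Its call was lost without BMDM DMXAA number 1 (0.97, adjusted p = 0.137) or BMDC DMXAA number 2 (1.04, adjusted p = 0.0507). That of mt-Nd5 was lost without BMDM DMXAA number 1 (0.62, adjusted p = 0.129) or number 2 (0.54, adjusted p = 0.169) and without BMDC DMXAA number 1 (0.40, adjusted p = 0.167) or number 3 (0.60, adjusted p = 0.0596). Ndufaf3, an assembly factor of complex I, was called lower at -0.72 (SE 0.19, edgeR adjusted p = 0.0108). Of the tissue forms, Cox4i1, the usual form of subunit 4 of complex IV, was called higher in BMDC under DMXAA at 0.73, a call lost without BMDM DMXAA number 1 (0.65, adjusted p = 0.103) or BMDC DMXAA number 1 (0.60, adjusted p = 0.0545). In control cells, 3 further members that were chosen after their values were seen were called higher, Uqcrfs1, the Rieske iron-sulphur subunit of complex III, at 0.71 (edgeR adjusted p = 0.0147), Atp5b, the catalytic beta subunit of ATP synthase, at 0.55 (edgeR adjusted p = 0.0226) and Cox5a of complex IV at 0.86 (edgeR adjusted p = 0.0176). Without BMDM control number 1 their values were 0.60, 0.52 and 0.73 (adjusted p = 0.14, 0.144 and 0.154), and without BMDC control number 1 they were 0.56, 0.44 and 0.70 (adjusted p = 0.0627, 0.0841 and 0.0679). Atp5b was also lost without BMDM control number 2 (0.64, adjusted p = 0.0677).

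Ndufa4 went the other way. Named for complex I and counted there by its symbol, it is known as a subunit of complex IV. It was at 47.5 and 69.0 FPKM in WT control BMDM and at 54.4 and 66.2 FPKM under DMXAA. In WT BMDC it was at 19.3, 19.1 and 20.5 FPKM in control and at 11.2, 12.5 and 13.8 FPKM under DMXAA. Every BMDC library of any group, at 9.70 to 26.4 FPKM, lay below every BMDM library, at 47.5 to 69.0 FPKM. The log2 fold change of BMDC against BMDM was -1.62 in control (SE 0.24, edgeR adjusted p = 0.000125), a level of 0.324 times that in BMDM, and -2.22 under DMXAA (SE 0.25, edgeR adjusted p = 9.73e-06), or 0.215 times. The control call held in all 14 alternatives. None of the 75-base stretches of Ndufa4 occur in another gene.

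Within BMDC, Ndufa4 was lower under DMXAA in all 6 same-numbered pairs: CRE went from 19.1, 26.4 and 21.1 FPKM to 9.70, 20.7 and 13.03 FPKM. The log2 fold change was -0.68 in WT (SE 0.24, edgeR adjusted p = 0.0522) and -0.64 in CRE (SE 0.24, edgeR adjusted p = 0.0728), neither called. It was called with the block within genotype, at -0.68 in WT (edgeR adjusted p = 0.00356) and -0.69 in CRE (edgeR adjusted p = 0.004). In BMDM it was -0.06 in WT (edgeR adjusted p = 0.846) and -0.25 in CRE (edgeR adjusted p = 0.493). The difference of the WT response between cell types was -0.59 (SE 0.35) and was not called (edgeR adjusted p = 0.531).

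AA467197, a gene outside the rule and named after its values were seen, encodes a small relative of Ndufa4 that is known to be induced in inflammation and to take the place of Ndufa4 in complex IV. It was at 0.529 and 2.52 FPKM in WT control BMDM and at 142 and 149 FPKM under DMXAA. In CRE BMDM it was at 0.930 and 0.251 FPKM in control and at 18.2 and 20.1 FPKM under DMXAA. WT and CRE libraries did not overlap under DMXAA. The log2 fold change was 6.45 in WT (SE 0.69, edgeR adjusted p = 0.000718) and 5.01 in CRE (SE 0.72, edgeR adjusted p = 0.00815). CRE was lower than WT under DMXAA by a log2 fold change of -2.88 (SE 0.57, edgeR adjusted p = 0.0167). The CRE call was lost without any single library of the 4: the adjusted p was 0.0517 and 0.094 without control number 1 or 2, and 0.0558 and 0.0571 without DMXAA number 1 or 2, with log2 fold changes of 4.32 to 6.18.

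In BMDC, AA467197 was already high without agonist. WT libraries were at 868, 818 and 621 FPKM in control and at 1525, 1822 and 961 FPKM under DMXAA, and the CRE libraries at 663, 494 and 974 FPKM and at 973, 862 and 1868 FPKM. The response of WT BMDC of 0.88 (SE 0.35) was not called (edgeR adjusted p = 0.076), nor was that of CRE of 0.77 (edgeR adjusted p = 0.129). BMDC exceeded BMDM in WT control cells by a log2 fold change of 8.91 (SE 0.74, edgeR adjusted p = 4.38e-07) and under DMXAA by 3.36 (SE 0.55, edgeR adjusted p = 0.000286). The difference of the responses was -5.55 (edgeR adjusted p = 0.000863). Across the 3 settings, Ndufa4 and AA467197 were thus high and near 0 in control BMDM, both high in WT BMDM under DMXAA, and low and high in BMDC.

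**Figure D5:**
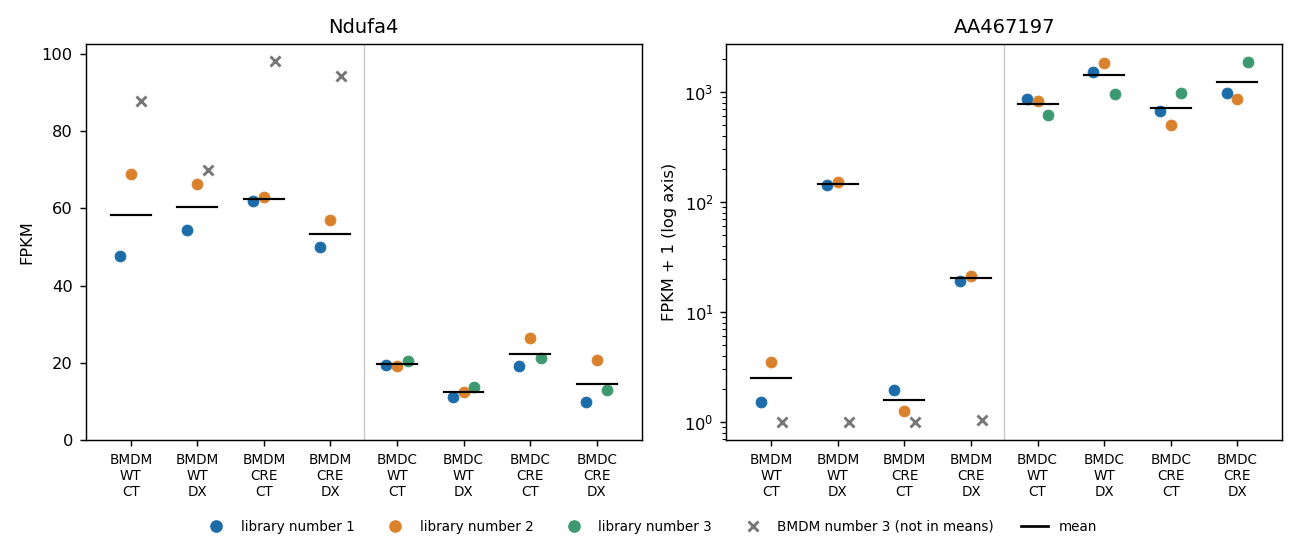
FPKM of Ndufa4 (left, linear axis) and of its relative AA467197 (right, FPKM + 1 on a log axis) in each library (CT control, DX DMXAA); bars are group means and crosses are the BMDM libraries numbered 3, left out of the means. Ndufa4 lies at 47.5 to 69.0 FPKM in BMDM and at 9.70 to 26.4 FPKM in BMDC, where AA467197 lies at 494 to 1868 FPKM.

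The 4 BMDM libraries numbered 3, which lack macrophage markers, kept the respiratory genes at similar sums of FPKM but in other proportions. Their nuclear members summed to 3543 to 4677 FPKM and the mitochondrial members to 8958 to 12314 FPKM. As shares of all gene counts they stood higher. The mitochondrial members made up 1.43% to 2.02%, against 0.824% to 1.31% in numbers 1 and 2, without overlap. The nuclear members made up 0.819% to 1.01% against 0.528% to 0.891%, which overlap. Against all 8 libraries numbered 1 and 2, all 4 were higher for 7 nuclear members and lower for 17 of 87, where 21% of all genes were higher and 28.7% lower. All 4 genes of complex II were among the lower, with Sdhb at 22.8 to 28.0 FPKM against 50.9 to 72.9 FPKM. Atp5e, the epsilon subunit of ATP synthase, chosen after its values were seen, was at 5.65 to 8.19 FPKM against 62.5 to 84.9 FPKM. Ndufa4 was among the higher, at 69.9 to 98.2 FPKM, and AA467197 was at or below 0.0340 FPKM.

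Between 1 DMXAA and 1 control library numbered 3 of each genotype, no test was made. Ndufaf4 went from 3.88 to 4.23 FPKM in WT and from 5.98 to 4.73 FPKM in CRE, and Ndufs3 from 18.3 to 17.3 FPKM and from 19.2 to 22.0 FPKM. The medians of the log2 ratio were -0.11 (WT) and -0.01 (CRE) for nuclear members and -0.45 in both for mitochondrial ones, 12 or 13 of 13 of which were lower under DMXAA. mt-Nd2 went from 1046 to 824 FPKM and from 1032 to 737 FPKM.

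Genes that assemble, transcribe and feed the chain were described from 6 lists. Of complex assembly factors outside the members, 5 of 30 tested rose and 3 fell in WT BMDM under DMXAA, and 4 of 31 rose and 3 fell in WT BMDC. Sco1, a copper chaperone of complex IV, rose in WT BMDM by a log2 fold change of 2.40 (edgeR adjusted p = 0.000301) and in BMDC by 2.56 (WT, edgeR adjusted p = 9.21e-07) and 2.27 (CRE, edgeR adjusted p = 2.12e-06). Its interaction in BMDM was -2.13 (edgeR adjusted p = 0.0207), with CRE below WT under DMXAA by -1.98 (edgeR adjusted p = 0.00216). Coa5, another complex IV assembly factor, rose in all 4 comparisons, by 2.10, 1.28, 0.97 and 0.86 in WT BMDM, CRE BMDM, WT BMDC and CRE BMDC. The 16 genes of mitochondrial DNA transcription and upkeep tested in WT BMDM split into 2 higher and 5 lower. Pnpt1, an RNA-degrading enzyme of mitochondria, rose by 2.45 (edgeR adjusted p = 0.000158), while Tfb2m, a mitochondrial transcription factor, fell by 1.195 on the log2 scale (edgeR adjusted p = 0.00465) and Lrpprc, which stabilises mitochondrial mRNA, fell by 0.86. In WT BMDC, 2 of 18 rose and 5 fell, with Pnpt1 at 1.70, Tfam, which packages mitochondrial DNA, at 0.52 (edgeR adjusted p = 0.033) and Tfb2m at -1.09.

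Nuclear regulators included Pprc1, a coactivator of respiratory genes, which fell in WT BMDM by 1.55 on the log2 scale (edgeR adjusted p = 0.00705) and in BMDC by 1.297 (WT) and 1.12 (CRE), and Myc, which fell by 2.48, 2.16 and 1.45. In this list 1 of 8 tested rose and 2 fell in WT BMDM, and 1 of 9 rose and 3 fell in both genotypes of BMDC. Of 9 carriers, Cycs (cytochrome c) rose in all 4 comparisons, by 1.33, 0.66, 0.76 and 0.69 in the order above. In the citric acid cycle list, Acod1, which diverts aconitate to itaconate, rose by 7.85 in WT BMDM (edgeR adjusted p = 0.0082) and by 6.55 in WT BMDC (edgeR adjusted p = 4.74e-06), while Idh3a, a subunit of isocitrate dehydrogenase, fell in all 4, by 0.83, 0.69, 0.87 and 0.69 on the log2 scale. That list had 1 rise and 4 falls among 15 in WT BMDM and 1 rise and 3 falls in WT BMDC. Of 77 mitochondrial ribosomal protein genes, 6 rose and 14 fell in WT BMDM and 0 rose and 9 fell in WT BMDC, with Mrps18b at -1.305 and -1.03. In CRE BMDM, 3 assembly factors, 1 upkeep gene, 1 carrier, 1 citric acid cycle gene and 1 ribosomal gene rose, and 0, 0, 1, 3 and 2 fell. These counts stand beside the shares of all genes called in each comparison given above.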

How the data were processed

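PolyA RNA from mouse BMDM and BMDC cultures was sequenced in 24 libraries, 3 per group, and all measurements are from 1 gene table. Per the labels and the submitters' processing notes, the authors demultiplexed reads with CASAVA 1.8, trimmed them with fastp, aligned them to GRCm38 (mm10) with HISAT2 2.0.5 and made counts per gene with featureCounts 1.5.0-p3; strandedness and the handling of multi-mapping reads are not given in the sources used here. The deposited FPKM values were made by the authors from those counts, with gene lengths and a library size that departs from the total count. The authors' own comparison columns (group means, log2 fold changes and p-values) were not used.

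The 107 members and all gene lists were chosen with earlier results of these data known. Counts were tested with edgeR 4.0.16 (quasi-likelihood test, TMM scaling, R 4.3.3) on a mean per group, in fits of 8 BMDM libraries numbered 1 and 2 (11569 genes), 12 BMDC libraries (12126 genes) and 20 libraries for cell types (13368 genes). Genes needed an FPKM of at least 1 in 2 libraries (3 for BMDC). P-values are two-sided and Benjamini-Hochberg adjusted over all genes tested, and a gene was called at an adjusted p under 0.05. Libraries held 15657347 to 18912887 counts, which sets the counting error. Symbols were matched to the table by name. Scripts were tested on simulated data.

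Genes were named by rule: in each comparison the 5 largest called changes each way with a mean of at least 5 FPKM in the higher group, all 13 mitochondrial genes, the tissue forms of complex IV subunits, Sdha to Sdhd, the highest and lowest gene of each complex, and of each other list the 2 largest called changes each way. Other genes are said in the text to have been chosen after their values were seen. Same-numbered control and DMXAA libraries of BMDC deviated together from their group means across 12126 genes (correlation 0.373 to 0.665 in 6 pairs), so that block is given beside the BMDC results. Alternatives were DESeq2 1.42.0, limma 3.58.1 on log2(FPKM + 1) and log2(FPKM + 0.1), median of ratios scaling, no filter, a fold threshold, all BMDM libraries, only the groups compared, blocks, and each library left out. Leaving out BMDC WT number 1 and CRE number 2 was added after the data were seen. Stretches of 75 bases of the GENCODE transcripts shared with other genes were counted as a measure of ambiguous reads. Figures were drawn with matplotlib 3.10.9 in Python 3.11.15.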

Additional observations from a re-analysis of the deposited data

How the results depend on the processing

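The counts of members called were given for 13 comparisons, and the alternatives changed many of the small ones by more than 1.5 times. In WT BMDM under DMXAA the 5 calls became 8 with DESeq2 and 8 with each limma setting, 1 with a log2 fold change of at least 1 also required, 1 with only the groups compared, 0 with all BMDM libraries, and 3 to 11 with 1 library left out. In CRE BMDM the 2 calls became 8 with DESeq2, 6 without the filter, 64 with only the groups compared (where 3315 of all genes were called higher and 3074 lower), 0 with the fold threshold, 0 with all BMDM libraries and 0 to 0 with 1 library left out. Between genotypes under DMXAA in BMDM the 1 call became 4 with DESeq2, 0 with the fold threshold, all BMDM libraries or only the groups compared, and 0 to 1 with 1 library left out. The interaction in BMDM went from 0 calls to 1 with DESeq2 and each limma setting, and 0 to 2 with 1 library left out. In WT BMDC the 4 calls became 1 with the fold threshold, 2 without the filter and 1 to 4 with 1 library left out. In CRE BMDC the 1 call became 4 with DESeq2, 2 with median of ratios scaling, 4 without BMDC WT number 1 and CRE number 2, and 1 to 3 with 1 library left out. For BMDC against BMDM in control, the 11 calls became 5 with the fold threshold, 22 with DESeq2 and 3 to 12 with 1 library left out. Under DMXAA the 22 calls became 6 with the fold threshold, 12 with all BMDM libraries, 10 with only the groups compared and 5 to 23 with 1 library left out. The fold threshold removes calls by its construction, leaving out a library or fitting only the groups compared uses fewer libraries, and otherwise the cause was not tested. Except where stated, the counts in these alternatives, here and above, lack the number of all genes called in the same setting. They therefore do not show a change particular to the members. Where leaving out a library leaves 1 in a group, that library is taken to vary like the others.

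With the replicate block within genotype, 14 members were called in WT BMDM, 26 in CRE BMDM, 4 for the BMDM interaction, 13 in WT BMDC and 5 in CRE BMDC. Of all 11569 genes the same block called 2854 higher and 3255 lower in WT BMDM, 1808 and 1112 in CRE BMDM, and 805 and 897 for the interaction. With a single replicate block over both genotypes, 5 were called in CRE BMDM, 2 between genotypes under DMXAA in BMDM, 1 for the BMDM interaction and 2 in CRE BMDC, and no other count moved by over 1.5 times. The number of all genes called with that single block is not given here. In BMDM only 2 pairs exist per genotype, with correlations of 0.638 (WT) and 0.033 (CRE), and neither the labels nor so few pairs settle whether the numbers pair these libraries. In BMDC, WT number 1 correlated with CRE number 2 (0.421 in control, 0.566 under DMXAA). So did WT number 2 with CRE number 3 (0.438 and 0.484) and WT number 3 with CRE number 1 (0.32 and 0.646). The remaining pairs of unlike number lay at -0.444 to 0.195. Same-numbered libraries of different genotype did not correlate positively (-0.494 to -0.0781).

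Besides the counts of calls, values of single genes and medians of the nuclear and mitochondrial members were compared with each alternative. Together 1002 stayed the same, a count that includes the medians, which were not tested and have no threshold. Of the single-gene values, 188 that were called were no longer called, 17 became called and 7 reversed. Of the medians, 32 moved. The 7 are all of Ndufa4 in WT BMDM under DMXAA, -0.06 as given and not called, which was 0.00342 with DESeq2, 0.00328 with median of ratios scaling, 0.0651 and 0.0664 with limma (pseudocounts 1 and 0.1), 0.00294 with only the groups compared, and -0.31 to 0.26 with 1 library left out. Between genotypes under DMXAA in BMDM, 1071 genes were called higher and 1157 lower with TMM, and 895 and 1314 with median of ratios scaling. Groups of 2 libraries limit the precision of every BMDM value, and counting error is largest for the lowest genes, such as mt-Atp8 at 0 to 1.47 FPKM in BMDM.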

Other observations

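Between CRE and WT BMDM under DMXAA, genes of the 6 other lists were called in both directions. Sco1 (-1.98), Pnpt1 (-0.89, edgeR adjusted p = 0.015), Cycs (-0.85, edgeR adjusted p = 0.00809) and Mrpl39, a mitochondrial ribosomal protein (-1.19, edgeR adjusted p = 0.0157), were lower in CRE on the log2 scale. Hif1a, the oxygen-regulated transcription factor, was also lower (-1.11, edgeR adjusted p = 0.00622), and Pprc1 was higher (1.496, edgeR adjusted p = 0.0168). Acod1 was lower by -4.90 (edgeR adjusted p = 0.0487). Of 30 complex assembly genes tested 1 was higher and 4 lower, of 16 genes of mitochondrial DNA upkeep 1 and 2, and of 77 genes of the mitochondrial ribosome 1 and 2, beside 9.26% of all genes higher and 10% lower. In control BMDM 0 genes of any of these lists were called by edgeR, and in BMDC 0 were called between genotypes in either condition.

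BMDC exceeded BMDM in WT control cells for 5 of 31 complex assembly genes with 0 lower, beside 13.1% of all genes higher and 15.4% lower. Among the 5 were Sdhaf2, which adds the flavin to Sdha (0.99, edgeR adjusted p = 0.00231), and Higd2a, which helps to form supercomplexes (0.98, edgeR adjusted p = 0.00624). Mdh2, the malate dehydrogenase of mitochondria, was higher by 1.04 (edgeR adjusted p = 0.0111), and Mrps6, a ribosomal protein, by 1.25 (edgeR adjusted p = 0.00203), while Tfam was lower by -0.49 (edgeR adjusted p = 0.032). Under DMXAA, Higd2a stood 1.17 higher (edgeR adjusted p = 0.00199), Mrps6 1.98 higher (edgeR adjusted p = 6.52e-05), Slc25a5, an exchanger of ADP and ATP, 0.97 higher (edgeR adjusted p = 0.00217), and Cox15, which makes heme a for complex IV, lower by -0.69 (edgeR adjusted p = 0.00147).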
